A study of Mus musculus with 22 samples.

Results

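The extracellular matrix genes of mouse neural stem cells were followed here as 1 group of 76 genes among the 24411 genes listed in both tables. The group holds the 44 genes with a collagen symbol, the 11 genes with a laminin chain symbol and 21 further matrix genes. These are the fibrillins, fibronectin, tenascins, Sparc, nidogens, perlecan, lecticans, lysyl oxidases, thrombospondin 1, Timp1, Timp2, Timp3, Crispld2 and Pcolce. Members were matched by symbol, but the symbols were chosen with earlier results of these data known. The counts of members that changed are therefore descriptions, not those of a set chosen blind to the values. The cells were primary neural stem cells from the hippocampus of adult mice, kept with EGF and bFGF on plates coated with poly-D-lysine and laminin, and the series concerns the loss of O-GlcNAcylation, a sugar modification of nuclear and cytosolic proteins that the enzyme O-GlcNAc transferase (Ogt) attaches.

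The knockdown arm held 6 libraries of cells carrying a lentiviral hairpin against luciferase (shLuc) and 5 of cells carrying a hairpin against Ogt (shOgt, replicates 1, 2, 3, 5 and 6), both at 10 viral particles per cell and collected after 3 days. The inhibitor arm held 6 libraries of cells given vehicle, an equal volume of DMSO, and 5 of cells given 12.5 µM OSMI-1, a compound that inhibits Ogt (replicates 1, 2, 4, 5 and 6), both for 24 h. No genotype, sex or exact age of the mice is given in the labels, and each group is 1 kind of primary culture. Whether replicate libraries stem from different animals or cultures is not said in the labels, so the p-values measure only how these libraries vary, which may be technical. Group means are given ± SD over libraries and log2 fold changes ± SE. The 2 tables were normalized separately, and levels are compared only within an arm.

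Matrix proteins are secreted and assembled outside the cell. Collagens form fibrils or sheet-like networks, laminins assemble from an alpha, a beta and a gamma chain, and nidogens and perlecan tie laminin to type IV collagen in basement membranes. Brain matrix differs from that of most organs in being rich in lecticans, proteoglycans that bind hyaluronan, and in tenascins, and tenascin C is well known from the niche of adult neural stem cells. Metalloproteinases cut many of these proteins, and the TIMPs inhibit the metalloproteinases.

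Libraries of the knockdown arm held 7.22 to 13.2 M recovered reads and those of the inhibitor arm 4.52 to 12.8 M, where only OSMI-1 replicate 4 exceeded 5.93 M. Ogt itself fell from a mean normalized count (reads divided by the size factor of the library) of 836 to 424 after knockdown, with every shOgt library below every shLuc library. In the inhibitor arm Ogt rose from 455 in vehicle to 599.9 in OSMI-1 (log2 fold change 0.40 ± 0.08). Every OSMI-1 library lay above every vehicle library for Ogt. Principal components of all tested genes set 5 libraries apart: shLuc 1 and, in its own arm, vehicle 1 by component 2, and by component 3 shOgt 3 with shLuc 3, and OSMI-1 5. Markers of neural stem cells were abundant, among them Nes (mean 5591 in shLuc and 5228 in shOgt), Vim and Slc1a3, whereas Sox2 was low (mean 65.6 in shLuc) and Hes5 lay below the filter on low counts. Markers of the cells that make most vascular and meningeal matrix were low, and several defining ones were at or near 0: Cdh5, Tie1, Pdgfrb and Lum each had a mean below 1 in every group, and the 8 endothelial markers summed to a median of 27.4 in shLuc and 57.8 in shOgt. The highest of these lists were the mural marker Acta2, with means of 9.11 in shLuc, 21.5 in shOgt, 83.3 in vehicle and 61.0 in OSMI-1, Tek (29.8 in shOgt) and the meningeal marker Ogn (20.4 in shLuc, 22.6 in shOgt and 29.0 in vehicle). The 7 microglia and immune markers summed to 32.6 at most in any library, and the 5 ependymal markers to a median of 109 in shLuc, 160.1 in shOgt, 157 in vehicle and 56.8 in OSMI-1, and the part of such cells in the results was not tested.

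Reads of the matrix genes made up 0.483, 0.552 and 0.563% of all reads in shLuc (here and below, the 3 values of a 6-library control group are its lowest, median and highest) and between 0.717 and 0.796% in the 5 shOgt libraries. In the inhibitor arm the share was 0.504, 0.537 and 0.568% in vehicle and between 0.458 and 0.565% in OSMI-1. The matrix share was thus higher in each shOgt library than in each shLuc library, while the groups of the inhibitor arm overlapped. In this bulk RNA, fewer cells of a type and less RNA per cell cannot be told apart. The summed normalized count was 52354, 56134 and 57966 in shLuc and ran from 69569 to 79358 in shOgt. Much of the rise lay in 2 genes: without Tnc and Sparc the sum was 28878, 30433 and 31609 in shLuc and ran from 30758 to 34742 in shOgt. Tnc and Sparc together held 45.5% of the summed level in shLuc and 56.9% in shOgt, and 54.2% in vehicle and 54.8% in OSMI-1.

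Per kilobase of exon, the matrix of these cultures was led by the same 3 genes in both control groups. Sparc, a collagen-binding glycoprotein, stood at 3238 normalized counts per kilobase in shLuc, followed by the lectican Bcan (brevican) at 1816 and Tnc (tenascin C) at 1685. Next came Ncan (neurocan) at 706, Pcolce at 624, the laminin chain Lamb2 at 384 and Col28a1 at 369. In vehicle, on its own scale, the order was Sparc (2565), Tnc (814), Bcan (643), Pcolce (275), Lamb2 (163) and Ncan (154). Classical fibrillar collagen was nearly absent: Col1a1 had 33 reads over the 11 libraries of the knockdown arm. Of the 44 collagens only 16 had enough reads to be tested in either arm, and the highest per kilobase in shLuc were Col28a1, Col9a3 (180) and Col5a2 (108). In vehicle they were Col28a1 (119), Col9a3 (94.7) and Col18a1 (44.0).

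**Figure D1:**
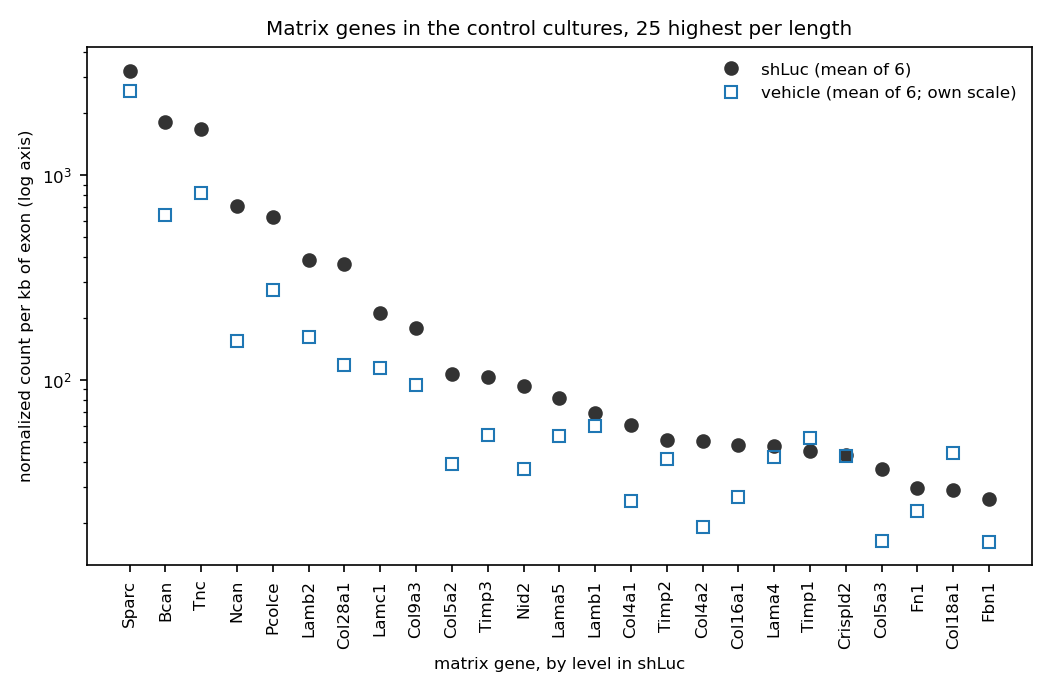
Mean normalized count per kilobase of exon (log axis) of the 25 matrix genes with the highest level in shLuc, as filled circles for shLuc and open squares for vehicle, each a mean of 6 libraries. Sparc leads both groups at 3238 and 2565, and the 2 groups were normalized separately.

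Sequences are shown for members that the results turn on, beginning with a pair whose mRNAs fell together after OSMI-1. The type IV collagen genes Col4a1 and Col4a2, whose chains join in 1 trimer, lie head to head on mouse chromosome 8, with RefSeq transcription starts 21 bases apart on opposite strands. The window of 250 bases before to 50 bases after the Col4a2 start (chr8:11312555-11312854, plus strand, RefSeq, GRCm38.p6) is printed with the 78 bases that also lie in the Col4a1 window in capitals.
Col4a2: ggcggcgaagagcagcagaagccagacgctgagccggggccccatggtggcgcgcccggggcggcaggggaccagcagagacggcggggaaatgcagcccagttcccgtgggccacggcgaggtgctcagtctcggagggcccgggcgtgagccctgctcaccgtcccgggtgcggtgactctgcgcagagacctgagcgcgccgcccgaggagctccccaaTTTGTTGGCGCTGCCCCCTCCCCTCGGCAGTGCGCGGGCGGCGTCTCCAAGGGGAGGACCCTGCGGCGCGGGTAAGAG
This window holds matches, searched on both strands, to the GC box letters GGGCGG and the CCAAT box letters CCAAT. Among 27025 genes with such a window, GGGCGG was found in 38.2% and CCAAT in 41.1%, and among the 54 matrix genes with a window in 66.7% and 37.0%. The letters TATAAA were found in 7 of the 54 windows (15.7% of all windows) and the AP-1 letters TGANTCA in 1 (8.97% of all windows). A match describes the letters only.

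Many collagen mRNAs are textbook targets of the miR-29 family, whose mature forms share the seed at bases 2 to 8, in capitals below (RefSeq, GRCm38.p6).
miR-29a-3p: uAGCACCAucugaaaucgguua
miR-29b-3p: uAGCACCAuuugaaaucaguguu
miR-29c-3p: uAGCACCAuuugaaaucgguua
The DNA letters that pair with this seed, TGGTGCT, were searched in the 3′UTR of 1 GENCODE transcript per gene (release M21, GRCm38), and 32 of the 76 matrix genes had at least 1 match, 14 of them 2 or more. The first match of each called member that has one, Fbn2 aside, is shown with the match in capitals, at base 33 of the 3′UTR of Col4a1, 43 of Col4a2, 988 of Col5a1, 1112 of Col5a2, 48 of Col5a3, 176 of Col16a1, 136 of Col26a1, 1398 of Lamc1, 589 of Ncan and 3184 of Tnr.
Col4a1: gccaccgtcacaacaTGGTGCTactccccc
Col4a2: gtgggaaggccacgtTGGTGCTtatccttc
Col5a1: ataactatgaacattTGGTGCTgaattttt
Col5a2: cttttcttttaatgaTGGTGCTaaaattat
Col5a3: cccacatgggctcctTGGTGCTgaggctct
Col16a1: tccatggggttccccTGGTGCTgca
Col26a1: gtccctggggagagaTGGTGCTtccaaggg
Lamc1: tattatctgacacacTGGTGCTattaatta
Ncan: cctacctggtttattTGGTGCTggacatgg
Tnr: gtgagaggggcaaagTGGTGCTcccagctc
Among genes tested after knockdown, 35.7% of the 42 matrix genes carried a match against 16.2% of 11337 genes with a searched 3′UTR. Over all these genes, 3′UTRs with a match were longer, with a median of 2520 bases against 1086. The 15 tested matrix genes with a match had a median log2 fold change of 0.12 after knockdown and -0.06 after OSMI-1, and those without had 0.37 and -0.23. These are descriptions: miRNAs were not measured here.

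After Ogt knockdown the matrix changed mostly upward, at the laminin chains, the glycoproteins and Timp1, Timp2 and Timp3, and downward at the lecticans. Of the 76 members 42 passed the filter on low counts, and 16 of them rose and 5 fell at an adjusted p under 0.05 (limma over all genes of the arm), while 21 were not called. Over all 12136 tested genes 15.4% rose and 16.4% fell. The median log2 fold change was 0.28 over the 42 members and 0.01 over all tested genes, and 16 members had groups that did not overlap, against 18.8% of all tested genes. Without the 3 libraries that stood apart in this arm, 17 rose and 6 fell. Leaving out 1 library at a time kept 16 to 18 rising members, while the number that fell lay between 2 and 5. It was 2 without shOgt 1 or shOgt 2, 3 without shOgt 5 or any of shLuc 2 to 6, and 4 or 5 otherwise.

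**Figure D2:**
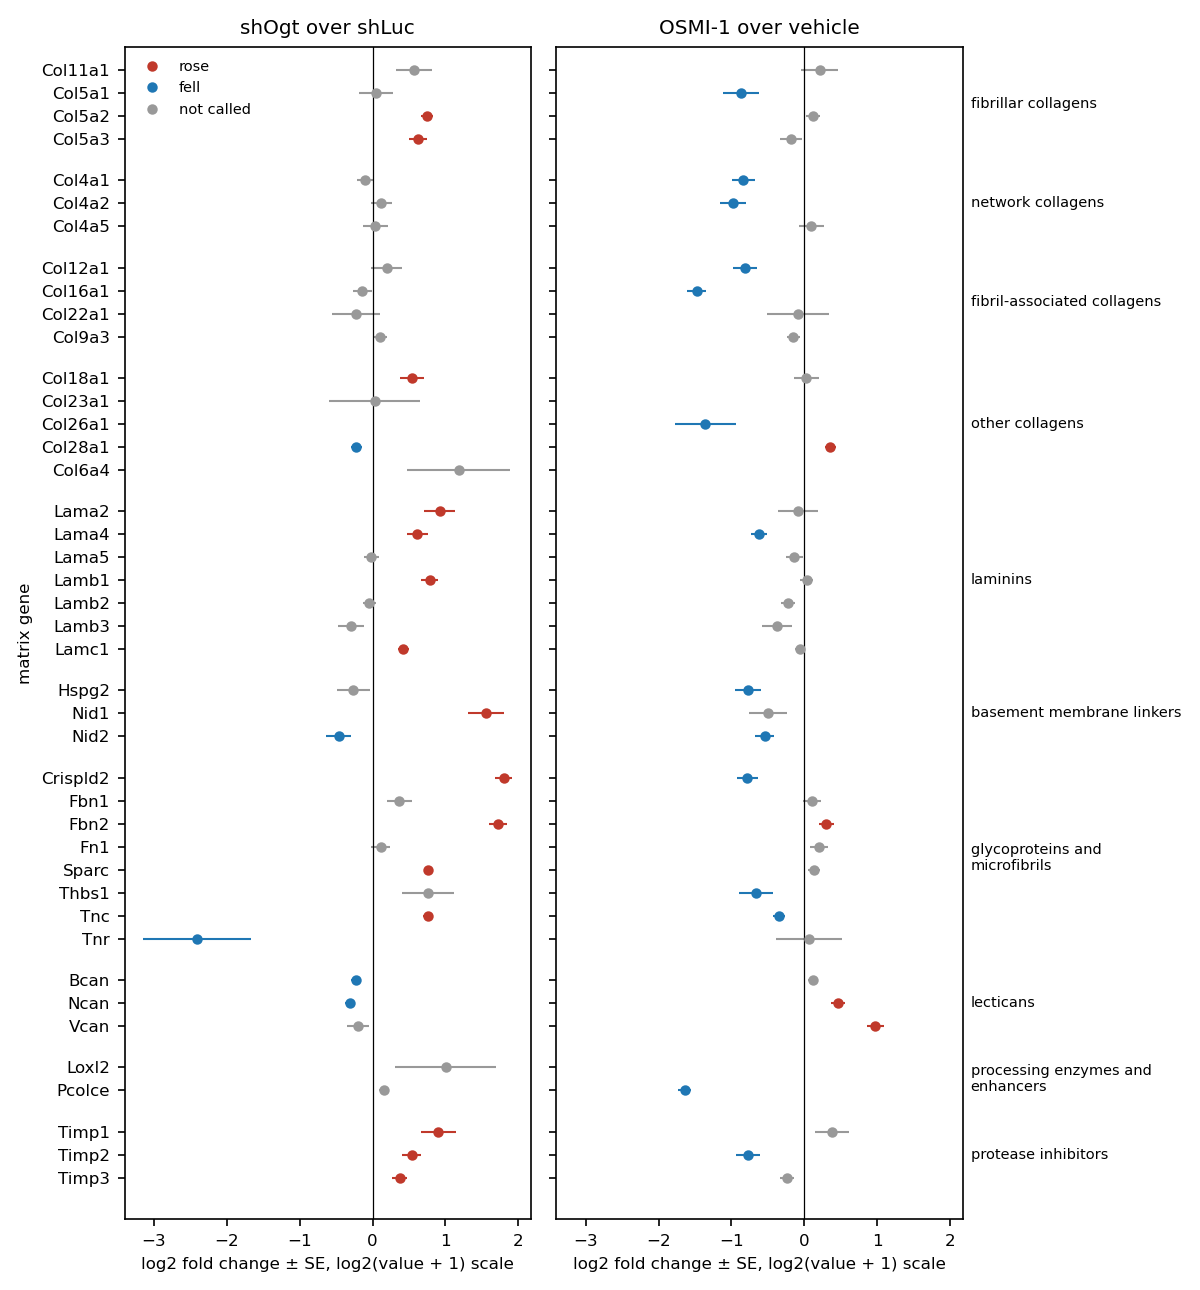
Log2 fold change with its standard error on the log2(normalized count + 1) scale for the tested matrix genes described in the text, grouped by role, in shOgt over shLuc on the left and OSMI-1 over vehicle on the right, with red for genes that rose, blue for genes that fell and grey for genes not called. The largest rise after knockdown is that of Crispld2 at 1.80, and the largest fall after OSMI-1 is that of Pcolce at -1.64.

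The glycoproteins and microfibril genes held the largest rises, with 4 of 8 tested members rising and 1 falling. Crispld2 (chr8:119992438-120052793, GRCm38 in all positions here), a secreted protein with LCCL domains, read 158, 221 and 235 in shLuc and 702, 683, 737, 667 and 789.7 in shOgt. Crispld2 was higher in each shOgt library than in any shLuc library, with a log2 fold change of 1.80 ± 0.12 (adjusted p = 1.8e-09), the largest among the members called as rising. Fbn2 codes for fibrillin 2, a scaffold of microfibrils that hold latent TGF-beta complexes, and read 271, 345 and 431 in shLuc and 1276, 1167, 1066, 1231 and 893 in shOgt. Its groups were far apart, with a log2 fold change of 1.72 ± 0.12 (adjusted p = 6.6e-09). Its paralog Fbn1 stood at 319 ± 65.6 in shLuc and 410.5 ± 96.7 in shOgt (log2 fold change 0.37 ± 0.17, adjusted p = 0.10).

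Tnc (chr4:63959785-64047015) is a large oligomeric glycoprotein that modulates cell adhesion. It had the highest mean normalized count of the group in the knockdown arm, while Sparc had the highest in the inhibitor arm. Tnc read 11075, 13509 and 14497 in shLuc and 23029, 23408, 22839, 22033 and 19417 in shOgt. Every shOgt library exceeded every shLuc library, with a log2 fold change of 0.76 ± 0.07 (adjusted p = 1.7e-07). Sparc (chr11:55394500-55423183) read 11434, 12511 and 12778 in shLuc and 21588, 20397, 21859, 20604 and 19374 in shOgt. Its groups lay far apart and varied little within themselves, with a log2 fold change of 0.76 ± 0.05 (adjusted p = 3.9e-09). Thbs1, the matricellular protein thrombospondin 1, varied widely within groups (89.9 ± 47.3 in shLuc and 149 ± 70.4 in shOgt) and was not called (adjusted p = 0.12), though it passed without shLuc 1 (0.037) or without shOgt 2 (0.031). Fn1, fibronectin, stood at 349 ± 59.6 in shLuc and 377 ± 56.5 in shOgt (log2 fold change 0.11 ± 0.13). Tnr, the tenascin of perineuronal nets, fell from the low mean of 24.0 ± 9.1 to 8.07 ± 11.0 (log2 fold change -2.41 ± 0.74, adjusted p = 0.017). This call for Tnr was lost with edgeR's quasi-likelihood test (-1.60, adjusted p = 0.091), with DESeq2 (-1.59, 0.090) and without shOgt 1 (0.057) or shOgt 2 (0.055), and its size was -1.44 with a pseudocount of 5.

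Laminin chains rose as a set of 5 among 8 tested, with none called as falling by limma, edgeR or DESeq2 and none at an unadjusted p under 0.05. The raised chains included Lamb1 and Lamc1, a beta and a gamma chain that many laminins share. Lamb1 (chr12:31265234-31329644) read 574, 659 and 877 in shLuc and 1516, 1132, 1278, 959 and 1045 in shOgt. No shOgt value of Lamb1 fell within the shLuc range, and the log2 fold change was 0.78 ± 0.12 (adjusted p = 4.6e-05). Lamc1 (chr1:153218922-153332786) rose from 1758 ± 144 to 2350.4 ± 164, a smaller change of 0.42 ± 0.07 (adjusted p = 0.00023) at a high level. Among the alpha chains, Lama4 (chr10:38965515-39110188), found in vessel walls and peripheral nerve, read 353, 592 and 749.9 in shLuc and 914, 832, 781, 821 and 959 in shOgt. The lowest shLuc value of Lama4 was that of shLuc 1, and the groups did not overlap, with a log2 fold change of 0.62 ± 0.14 (adjusted p = 0.0026). Lama2, the alpha chain of muscle and glial basement membranes, read 42.0, 59.5 and 89.2 in shLuc and 125, 109, 162, 106 and 105 in shOgt. Lama2 was higher in each shOgt library than in each shLuc library, with a log2 fold change of 0.92 ± 0.21 (adjusted p = 0.0024). The other 3 chains were not called: Lamb2, the most abundant chain per kilobase, was 2336 ± 261 in shLuc and 2266 ± 245 in shOgt, and Lama5 and Lamb3 had log2 fold changes of -0.02 ± 0.10 and -0.30 ± 0.18.

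The proteins that link basement membrane components moved in different directions. Nid1 (chr13:13437551-13512269), nidogen 1, read 28.5, 58.0 and 97.9 in shLuc and 157, 156, 147, 189.9 and 143 in shOgt. All 5 shOgt libraries lay above the highest shLuc library for Nid1, and the log2 fold change was 1.56 ± 0.25 (adjusted p = 7.8e-05). Nid2, its paralog, read 254, 505 and 629.6 in shLuc and 281, 312, 397, 375 and 345 in shOgt. Nid2 fell, with a log2 fold change of -0.47 ± 0.17 (adjusted p = 0.046), but shLuc 1 lay below every shOgt library. The Nid2 call was lost in 9 of 11 fits that left out 1 library (shLuc 2 to 6 and shOgt 1, 2, 5 and 6, adjusted p from 0.055 to 0.13). Hspg2, perlecan, stood at 97.6 ± 31.8 in shLuc and 79.4 ± 18.1 in shOgt and was not called. Of the endothelial markers, which are known from cells rich in these proteins, Tek rose from 9.71 to 29.8 by limma but not by edgeR or DESeq2, and the part of such cells in these results was not tested.

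Among the tested collagens, Col5a2, Col5a3 and Col18a1 were called as rising after knockdown and Col28a1 as falling. Over all tested genes 15.4% rose and 16.4% fell. Col5a2 and Col5a3 are chains of type V collagen, which sets the width of collagen fibrils. Col5a2 (chr1:45374321-45503282) read 877, 1041 and 1116 in shLuc and 1779.6, 1839.7, 1853, 1670.0 and 1502 in shOgt. Col5a2 did not overlap between the groups and rose, with a log2 fold change of 0.74 ± 0.08 (adjusted p = 1.3e-06). Col5a3 (chr9:20770050-20815067) read 205, 265 and 281 in shLuc and 462, 404, 385, 331 and 359 in shOgt. Col5a3 was likewise above every shLuc library in all 5 shOgt libraries, with a log2 fold change of 0.62 ± 0.12 (adjusted p = 0.00066), while the third chain, Col5a1, was at 52.9 ± 11.0 in shLuc and 54.8 ± 12.4 in shOgt. Col18a1, a basement membrane collagen that carries heparan sulfate, rose from 205 ± 47.2 to 294 ± 37.6 with overlapping groups (log2 fold change 0.54 ± 0.16, adjusted p = 0.013). None of 3 tested network collagens and none of 4 tested fibril-associated collagens was called by limma, edgeR or DESeq2, or had an unadjusted p under 0.05: Col4a1 was at 449 ± 60.7 in shLuc and 415 ± 40.5 in shOgt, Col4a2 at 336 ± 67.3 in shLuc and 362 ± 55.6 in shOgt and Col9a3 at 695 ± 54.6 in shLuc and 747 ± 101 in shOgt. The other tested collagens were not called either, with log2 fold changes of 0.57 ± 0.24 for Col11a1, 0.19 ± 0.21 for Col12a1, -0.14 ± 0.13 for Col16a1, 0.04 ± 0.17 for Col4a5 and -0.23 ± 0.33 for Col22a1, and of 1.18 ± 0.71 and 0.03 ± 0.63 for the low Col6a4 and Col23a1. Col28a1, a short collagen with von Willebrand factor A domains known from peripheral nerve, read 1450.1, 1840.2 and 1973 in shLuc and 1612, 1547, 1495, 1446 and 1626 in shOgt. The Col28a1 log2 fold change was -0.22 ± 0.08 (adjusted p = 0.041) with overlapping groups, and the call was lost without any 1 of shLuc 2 to 6 or shOgt 1, 2, 3 and 5 (adjusted p from 0.056 to 0.10).

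**Figure D3:**
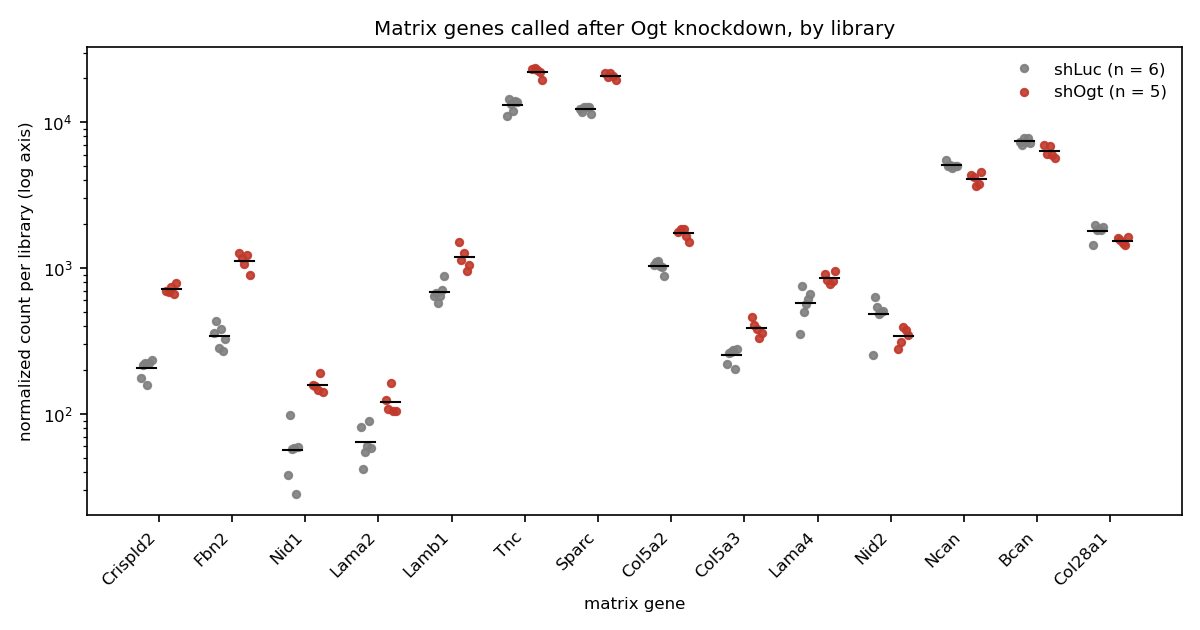
Normalized count per library (log axis) of the 14 matrix genes called after Ogt knockdown whose higher group mean was at least 100, up to 10 rising and 10 falling, in 6 shLuc (grey) and 5 shOgt (red) libraries, with group means as black lines. For Sparc the shOgt libraries lie between 19374 and 21859 and the highest shLuc library at 12778, whereas for Nid2 and Col28a1 the groups overlap.

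Of the 3 lecticans 2 fell after knockdown. Ncan (chr8:70093085-70120873), neurocan, read 4842, 5008 and 5506 in shLuc and 4370.4, 4194, 3652, 3768 and 4567 in shOgt. Ncan was lower in each shOgt library than in each shLuc library, with a log2 fold change of -0.31 ± 0.07 (adjusted p = 0.0014). Bcan (chr3:87987531-88000230), brevican, read 6941, 7294 and 7772 in shLuc and 6926, 6099, 6892, 5944 and 5646 in shOgt. The 2 Bcan groups just failed to touch, with the highest shOgt library at 6926 and the lowest shLuc library at 6941, and the log2 fold change was -0.23 ± 0.06 (adjusted p = 0.0086). Vcan, versican, was at 285 ± 64.0 in shLuc and 242 ± 21.9 in shOgt and not called (adjusted p = 0.32), and passed as lower when the libraries that stood apart were left out (-0.36, adjusted p = 0.029). Brevican and neurocan are also made by oligodendrocyte precursors, and 3 of 4 tested markers of that lineage fell here. Their 7 markers summed to 17774, 19601 and 20743 in shLuc and to 10014 to 11543 in shOgt, and the part of this in the lecticans was not tested.

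All 3 TIMPs of the group rose. Timp4, a TIMP counted in the protease list below, fell from 1243 ± 74.0 to 869 ± 85.0. Its log2 fold change was -0.52 ± 0.08 (adjusted p = 7.4e-05), and its groups did not overlap. Timp3, the TIMP that binds to matrix, rose from 847 ± 114 to 1091 ± 109 (log2 fold change 0.37 ± 0.10, adjusted p = 0.0093), and 21.3% of its exon length is shared with Syn3 on the opposite strand, whose reads could not be told apart if counting ignored strand. Timp2 (chr11:118301069-118355740) rose from 199 ± 19.98 to 291 ± 52.5 (log2 fold change 0.54 ± 0.13, adjusted p = 0.0044) and Timp1 from 40.1 ± 11.1 to 74.3 ± 11.5 (log2 fold change 0.90 ± 0.24, adjusted p = 0.0070). Pcolce, the enhancer of the proteinase that trims the C-terminal end of procollagens, was at 2384 ± 187 in shLuc and 2658 ± 225 in shOgt and not called (adjusted p = 0.12), though it passed without shOgt 6 (0.038), with total-read scaling (0.020) and with array weights (0.038). Loxl2, a lysyl oxidase relative, was barely detected, at 7.14 ± 5.86 in shLuc and 12.5 ± 5.95 in shOgt.

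Genes that act on the matrix were counted in 5 further lists. Among 21 tested genes of collagen processing 3 rose and 2 fell. Plod1, a collagen lysyl hydroxylase, fell from 3304 ± 300.2 to 2402 ± 172 (log2 fold change -0.46 ± 0.07, adjusted p = 9.3e-05) and the collagen galactosyltransferase Colgalt1 fell from 2439 ± 103 to 1932 ± 112. Of 20 tested proteases and protease inhibitors 6 rose and 6 fell, and the membrane-bound metalloproteinase Mmp16 fell from 439 ± 42.5 to 219.6 ± 51.2 (log2 fold change -1.02 ± 0.14, adjusted p = 1.1e-05). In the TGF-beta list 4 of 14 rose and 2 fell. Cyr61 and Ctgf, matricellular proteins induced by TGF-beta and YAP, rose from 505 ± 43.3 to 1321 ± 115 and from 1155 ± 134 to 1772 ± 125, and the receptor Tgfbr2 rose from 416 ± 54.6 to 804 ± 74.5 (log2 fold change 0.96 ± 0.11, adjusted p = 1.3e-06). Among 18 matrix receptors 2 rose and 3 fell: the integrin chains Itga8 and Itga6 fell from 374 ± 69.9 to 219.6 ± 28.8 and from 209.9 ± 33.9 to 113 ± 29.1, and Itgb5 rose from 58.1 ± 16.1 to 125 ± 12.0. Of 3 tested hyaluronan and link genes only Hyal2, a hyaluronidase, was called, rising from 1315 ± 160.0 to 1584 ± 107.

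After OSMI-1 the matrix genes changed mostly downward, at Pcolce, type IV collagen and fibril-associated collagens, and upward at the lecticans Vcan and Ncan. Of 39 members that passed the filter 4 rose and 14 fell, while 21 were not called. Over all 11349 tested genes of this arm 11.6% rose and 13.2% fell. The median log2 fold change was -0.15 over the members and 0.0016 over all tested genes, and 11 members had groups that did not overlap, against 14.0% of all tested genes. Without vehicle 1 and OSMI-1 5, which stood apart, 3 rose and 14 fell. Leaving out 1 library at a time gave 12 to 15 falling members, and 3 or 4 rising ones except without OSMI-1 6, when 7 rose.

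The largest change among the tested members was in collagen processing. Pcolce (chr5:137605103-137613784) read 985, 1048 and 1164 in vehicle and 399, 341, 346, 307 and 297 in OSMI-1. The highest OSMI-1 library of Pcolce lay far below the lowest vehicle library, with a log2 fold change of -1.64 ± 0.08 (adjusted p = 1.5e-12). Of its exon length 2.93% is shared with Fbxo24 on the same strand. The enzymes of the collagen processing list did not follow 1 direction, as 6 of 19 tested rose and 3 fell. P4hb, the beta subunit of prolyl hydroxylase, fell from 5088 ± 236 to 3071 ± 314 (log2 fold change -0.73 ± 0.07, adjusted p = 2.2e-08), while Plod1 and the prolyl hydroxylase subunit P4ha1 rose from 1272 ± 122 to 2029.9 ± 208 and from 569.9 ± 29.5 to 774 ± 78.2.

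Collagens fell in several classes, 6 of 14 tested being called lower and 1, Col28a1, higher. Both chains encoded by the head-to-head type IV pair fell. Col4a1 (chr8:11198423-11312826) read 138, 206 and 233 in vehicle and 128, 135, 83.1, 90.7 and 98.5 in OSMI-1. Col4a1 did not overlap between the groups and fell, with a log2 fold change of -0.84 ± 0.16 (adjusted p = 0.00040). Col4a2 (chr8:11312805-11449287) read 87.8, 126 and 161 in vehicle and 46.5, 58.8, 59.4, 76.4 and 80.2 in OSMI-1. Col4a2 was lower in each OSMI-1 library than in each vehicle library, with a log2 fold change of -0.98 ± 0.18 (adjusted p = 0.00029), whereas the third tested network chain, Col4a5, was at 87.6 ± 23.0 in vehicle and 91.5 ± 8.56 in OSMI-1. The exons of the pair share 22 bases on opposite strands.

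Col16a1 (chr4:130047840-130099283) codes for a fibril-associated collagen, a class that decorates the surface of fibrils. Col16a1 read 169, 176 and 199.8 in vehicle and 61.1, 78.1, 57.2, 68.0 and 59.6 in OSMI-1. The OSMI-1 values of Col16a1 were all under the lowest vehicle value, and the log2 fold change was -1.48 ± 0.13 (adjusted p = 1.6e-08). Col12a1, another of this class, fell from 97.4 ± 17.8 to 54.6 ± 7.9 without overlap (log2 fold change -0.82 ± 0.17, adjusted p = 0.00092), and Col9a3 was at 365 ± 13.8 in vehicle and 329 ± 32.9 in OSMI-1 and not called. Col5a1 (chr2:27886425-28039514) fell from 45.4 ± 7.33 to 25.4 ± 8.79 (log2 fold change -0.87 ± 0.25, adjusted p = 0.014), while Col5a2 and Col5a3 had log2 fold changes of 0.12 ± 0.10 and -0.18 ± 0.15. Col18a1, Col11a1 and Col22a1 were not called, at 0.03 ± 0.18, 0.21 ± 0.25 and -0.09 ± 0.43 on the same scale. Col26a1 fell at a low level, from 14.8 ± 3.34 to 5.63 ± 3.16 (log2 fold change -1.36 ± 0.41, adjusted p = 0.018). Col28a1 went the other way and read 531, 582 and 633 in vehicle and 811, 735, 745, 724 and 704 in OSMI-1. All OSMI-1 libraries exceeded the highest vehicle library for Col28a1, with a log2 fold change of 0.36 ± 0.08 (adjusted p = 0.0014).

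Basement membrane linkers fell in 2 of 3 cases. Nid2 (chr14:19751265-19811787) read 163, 194 and 221 in vehicle and 154, 125, 110.2, 116 and 152 in OSMI-1. Nid2 did not overlap between vehicle and OSMI-1 and fell, with a log2 fold change of -0.54 ± 0.13 (adjusted p = 0.0030). Of the Nid2 exon length 8.45% is shared with Rtraf on the opposite strand, whose reads could not be told apart if counting ignored strand. Hspg2 (chr4:137468769-137570630) read 125, 188 and 234 in vehicle and 114, 107, 137, 107 and 65.3 in OSMI-1. For Hspg2, 4 of 5 OSMI-1 libraries lay below every vehicle library, with a log2 fold change of -0.78 ± 0.18 (adjusted p = 0.0024). Nid1 was at 50.6 ± 16.3 in vehicle and 35.0 ± 10.1 in OSMI-1 and not called (adjusted p = 0.18), though it passed without vehicle 2 (0.042). Of 7 tested laminin chains only Lama4 was called. Lama4 read 456, 491 and 606 in vehicle and 351, 400.4, 344, 237 and 331 in OSMI-1. The Lama4 groups did not overlap, and the log2 fold change was -0.62 ± 0.11 (adjusted p = 0.00027). Lamb1 and Lamc1 were at 589.5 ± 46.9 in vehicle and 604 ± 68.2 in OSMI-1 and at 944 ± 60.7 in vehicle and 904 ± 61.8 in OSMI-1, and Lamb2 at 991 ± 106 in vehicle and 851 ± 117 in OSMI-1 (adjusted p = 0.083, and 0.048 without OSMI-1 1). Lama2, Lama5 and Lamb3 had log2 fold changes of -0.09 ± 0.27, -0.13 ± 0.12 and -0.37 ± 0.20, none of them called. The 8 fibroblast and meningeal markers summed to 32.6, 44.7 and 48.2 in vehicle and to 15.1 to 29.8 in OSMI-1, with Ogn falling from 29.0 to 9.55 and Dcn, Lum and Foxc2 at or near 0. The 7 mural markers, mostly through Acta2, summed to 78.6, 86.9 and 104 in vehicle and to 41.2 to 96.7 in OSMI-1, and the part of such cells in these falls was not tested.

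Among the glycoproteins 3 of 8 fell and 1 rose. Crispld2 read 171, 202 and 237 in vehicle and 107, 138, 161, 87.1 and 111 in OSMI-1. No OSMI-1 value of Crispld2 reached the vehicle range, and the log2 fold change was -0.78 ± 0.14 (adjusted p = 0.00029). Thbs1 read 72.3, 100.3 and 137 in vehicle and 91.1, 61.8, 47.8, 91.9 and 35.5 in OSMI-1. The Thbs1 groups overlapped, and the log2 fold change of -0.66 ± 0.24 (adjusted p = 0.043) was lost without vehicle 4, 5 or 6 or without OSMI-1 2, 4 or 6 (adjusted p from 0.068 to 0.14). Tnc fell from 6325 ± 608 to 5010.2 ± 697 with overlapping groups, a log2 fold change of -0.34 ± 0.08 (adjusted p = 0.0037), while Sparc was at 9716 ± 599 in vehicle and 10783 ± 1716 in OSMI-1 and not called (adjusted p = 0.26, and 0.019 as higher without OSMI-1 6). Fbn1, Fn1 and Tnr were not called, with log2 fold changes of 0.10 ± 0.12, 0.21 ± 0.12 and 0.06 ± 0.46. Fbn2 read 234, 257 and 282 in vehicle and 256, 338, 389, 310.2 and 301 in OSMI-1. Fbn2 rose slightly, with 4 of 5 OSMI-1 libraries above every vehicle library and a log2 fold change of 0.30 ± 0.11 (adjusted p = 0.039). That call was lost without vehicle 1, 2, 4, 5 or 6 or without OSMI-1 2, 4 or 5 (adjusted p from 0.056 to 0.13) and without the libraries that stood apart (0.075).

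**Figure D4:**
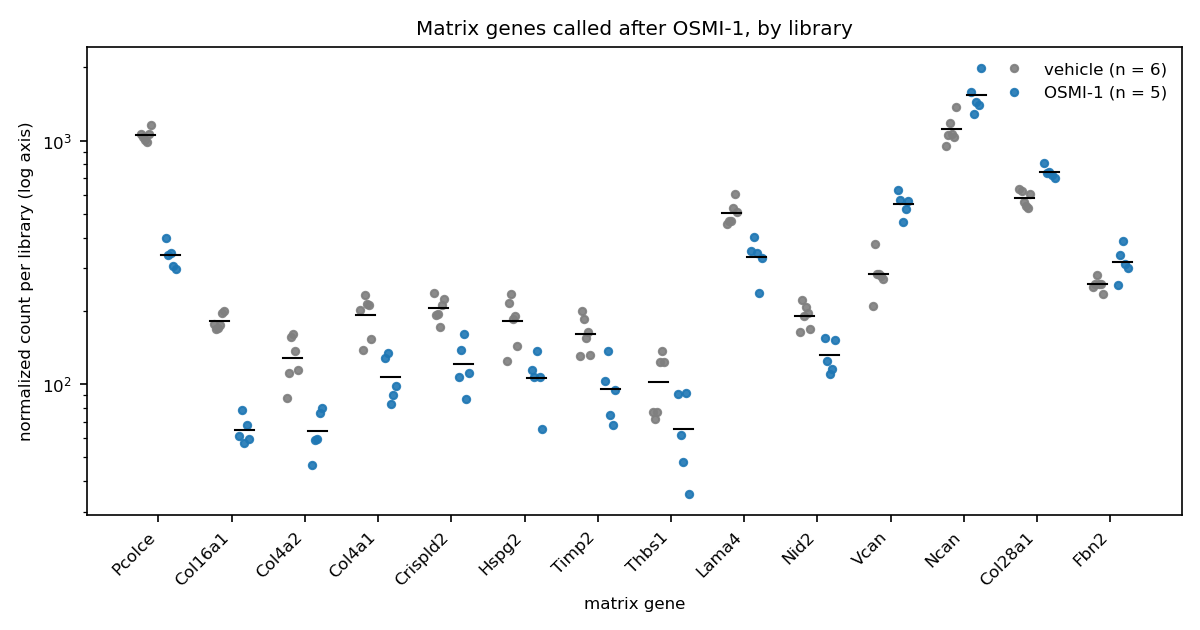
Normalized count per library (log axis) of 14 matrix genes called after OSMI-1 whose higher group mean was at least 100, the 10 with the largest falls and the 4 that rose, in 6 vehicle (grey) and 5 OSMI-1 (blue) libraries, with group means as black lines. The OSMI-1 libraries of Pcolce lie between 297 and 399, all below the lowest vehicle library at 985.

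Of the 3 lecticans 2 rose after OSMI-1. Vcan (chr13:89655312-89742509) read 209, 279 and 375 in vehicle and 628, 573, 465, 525 and 566 in OSMI-1. The lowest OSMI-1 library of Vcan lay above the highest vehicle library, and the log2 fold change was 0.97 ± 0.12 (adjusted p = 1.3e-06), the largest rise among the tested members. Ncan read 951, 1061 and 1374 in vehicle and 1581, 1283, 1437, 1397 and 1982 in OSMI-1. For Ncan, 4 of 5 OSMI-1 libraries exceeded every vehicle library, with a log2 fold change of 0.46 ± 0.10 (adjusted p = 0.0015). Bcan was at 2612 ± 189 in vehicle and 2841 ± 246 in OSMI-1 and not called. Markers of the oligodendrocyte lineage, which also makes these proteins, summed to 9716, 11006 and 12283 in vehicle and to 10943 to 14661 in OSMI-1. Of 5 tested markers 1 rose and 1 fell. The 5 astrocyte markers summed to 1929, 2087 and 2268 in vehicle and to 2403 to 2680 in OSMI-1. Of the 3 tested, S100b and Aldh1l1 rose and Gja1 was not called, while Gfap and Aqp4 lay below the filter. The part of either cell type in the lecticans was not tested.

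Of the TIMPs in the group only Timp2 was called. Timp2 read 131, 159 and 199 in vehicle and 103, 137, 74.9, 68.0 and 95.1 in OSMI-1. Timp2 fell (log2 fold change -0.77 ± 0.17, adjusted p = 0.0016), with 1 OSMI-1 library inside the vehicle range. Timp3 was at 442 ± 60.1 in vehicle and 373 ± 24.2 in OSMI-1 (adjusted p = 0.079, and 0.047 without vehicle 4) and Timp1 at 46.5 ± 6.08 in vehicle and 64.1 ± 21.3 in OSMI-1 (adjusted p = 0.26, and 0.018 without OSMI-1 6). In the protease list 4 of 16 rose and 2 fell. Serpine2, protease nexin 1, which inhibits thrombin and plasminogen activators, rose from 39426 ± 4078 to 58831 ± 3665 (log2 fold change 0.58 ± 0.07, adjusted p = 3.4e-06), and Adamts1, a secreted protease that cuts lecticans, fell from 213 ± 41.5 to 128 ± 25.2 (log2 fold change -0.73 ± 0.15, adjusted p = 0.00083).

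In the TGF-beta list 1 of 14 rose and 5 fell after OSMI-1. Ctgf fell from 684 ± 86.8 to 374 ± 106 (log2 fold change -0.92 ± 0.16, adjusted p = 0.00013) and the ligand Tgfb3 from 38.4 ± 14.2 to 12.5 ± 2.12, while the ligand Tgfb2 rose from 367 ± 40.3 to 468 ± 24.0. Among 16 matrix receptors 3 rose and 3 fell. Dag1, dystroglycan, a laminin receptor, rose from 2324 ± 209.6 to 3059.9 ± 129.6 (log2 fold change 0.40 ± 0.07, adjusted p = 0.00011), the integrin chain Itga8 rose from 175 ± 9.02 to 253 ± 40.9, and the collagen receptor Ddr2 fell from 689 ± 51.4 to 546 ± 76.2. None of 3 tested hyaluronan and link genes was called by limma, edgeR or DESeq2, and 1 had an unadjusted p under 0.05.

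The question whether the hairpin and the inhibitor moved the matrix genes alike was put to the difference of the 2 log2 fold changes. Of 38 members tested in both arms the difference was called for 25, 20 of them higher after knockdown and 5 lower, while over all 11269 genes tested in both it was called for 22.9%. The arms also differ in exposure time, normalization and the share of ribosomal reads (Rn45s took 0.921 to 1.25% of a library after the hairpins and 4.81 to 14.2% with vehicle or OSMI-1), which cannot be told apart from the agent. By direction, 4 members rose after knockdown and fell after OSMI-1: Crispld2, with a difference of 2.58 ± 0.19 (adjusted p = 7.7e-12), Timp2 with 1.31 ± 0.22 (adjusted p = 4.2e-05), Lama4 with 1.23 ± 0.19 (adjusted p = 1.4e-05) and Tnc with 1.10 ± 0.12 (adjusted p = 1.3e-08). In the opposite sense, 2 members fell after knockdown and rose after OSMI-1, Ncan with a difference of -0.77 ± 0.13 (adjusted p = 3.2e-05) and Col28a1 with -0.58 ± 0.11 (adjusted p = 0.00015), though the knockdown call of Col28a1 was lost in 12 of the alternative fits. Fbn2 was called as rising and Nid2 as falling in both arms, although the call of Fbn2 after OSMI-1 and that of Nid2 after knockdown were among those lost with single libraries left out, and 9 members were called in neither.

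Among basement membrane genes, Lama4 and Nid2 were called in both arms and others in 1. Nid1 was called only after knockdown, and its difference of 2.06 ± 0.38 (adjusted p = 0.00011) was itself called, as were those of Lamb1 (0.75 ± 0.15, adjusted p = 0.00036) and Lamc1 (0.48 ± 0.10, adjusted p = 0.00058). Pcolce, Col16a1 and Col4a2 were called only after OSMI-1, and their differences were 1.80 ± 0.11 (adjusted p = 2.3e-13), 1.34 ± 0.18 (adjusted p = 1.1e-06) and 1.09 ± 0.24 (adjusted p = 0.00083). Vcan had a difference of -1.18 ± 0.20 (adjusted p = 3.0e-05). For Nid2 the difference was small, 0.08 ± 0.22 (adjusted p = 0.84), and for Timp1 and Hspg2, each called in 1 arm, it was not called either (0.52 ± 0.34, adjusted p = 0.28, and 0.51 ± 0.30, adjusted p = 0.23). Without the libraries that stood apart 22 members differed.

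**Figure D5:**
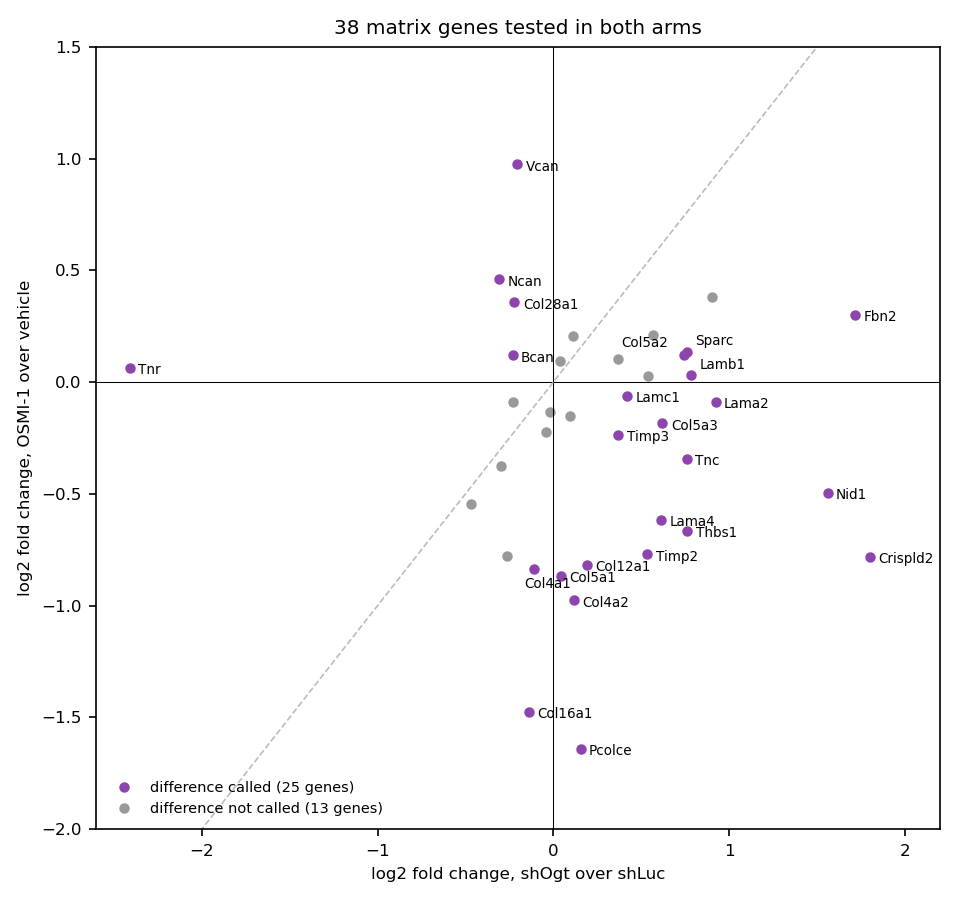
Log2 fold change after Ogt knockdown (x axis) against that after OSMI-1 (y axis) for the 38 matrix genes tested in both arms, with the 25 whose difference was called in purple and named, the other 13 in grey, and the dashed line marking equal changes. Crispld2 lies at 1.80 and -0.78 and Vcan at -0.21 and 0.97.

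Of the 43 members tested in either arm, Col6a4, Col23a1 and Loxl2 were among those tested only after knockdown, and Col26a1 was tested only after OSMI-1. The other 33 members were below the filter on low counts in both arms. The highest group mean among these 33 was 11.1, for Col6a1. They include Col1a1, Col1a2 and Col3a1, the main fibrillar collagens of connective tissue, and the lysyl oxidases Lox and Loxl1, which cross-link collagen, none of which entered the counts above. Tested with limma without the filter, an alternative setting, 2 of the 33 rose after knockdown (Col6a2 and Col6a5), and 1 rose and 1 fell after OSMI-1. Col3a1, a fibril-forming chain, had 2.22, 6.22 and 11.96 in vehicle, and in OSMI-1 it was at 0 in 3 libraries and at most 1.82 in the others. The Col3a1 groups did not overlap, with a log2 fold change of -2.23 ± 0.47 (limma without the filter, adjusted p = 0.0028) and -3.42 by DESeq2 (adjusted p = 0.0066). Col19a1, a fibril-associated collagen, had 0, 1.14 and 3.26 in vehicle and 7.32 to 14.3 in OSMI-1. Every OSMI-1 library exceeded every vehicle library for Col19a1, with a log2 fold change of 2.39 ± 0.45 (limma without the filter, adjusted p = 0.0010) and 2.79 by DESeq2 (adjusted p = 0.0017). These values rest on 37 reads of Col3a1 in vehicle and 4 in OSMI-1, and on 8 and 57 of Col19a1. After knockdown Col6a2 had a log2 fold change of 2.37 ± 0.64 (limma without the filter, adjusted p = 0.015; DESeq2, 0.018) with overlapping groups, and Col6a5 had 1.74 ± 0.56 (adjusted p = 0.038) and got no adjusted p from DESeq2.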

How the data were processed

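RNA was sequenced in 22 libraries, grouped by the sample labels. The submitters' processing notes name STAR, RSEM and DESeq2, and their versions are not given in the sources used here. The build named there is human (hg38) although the symbols are those of mouse, and the labels' extract protocol and the design text name different library kits. Whether counting used strand is not given in the sources used here. Per the file headers, the authors deposited 1 table per arm with normalized counts per library (a signal: counts over the size factor of the library), and per gene a log2 fold change, its error, a Wald score, a p-value and an adjusted p-value. The deposited fold changes are shOgt over shLuc and vehicle over OSMI-1, and they were not used, apart from the value printed for Loxl2 in the inhibitor arm.

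Each library's values were whole multiples of 1 step (100% within 0.001), so reads were recovered. Genes were kept by filterByExpr of edgeR 4.0.16 (minimum count 10, minimum total 15), and log2(normalized count + 1) was tested with limma 3.58.1 with trend (R 4.3.3), two-sided, within each arm, without covariates. The difference between the arms was a contrast of 1 limma fit on both arms. Benjamini-Hochberg adjustment ran over all tested genes, and genes were called under 0.05. For low genes, fold changes on this scale can be smaller or larger than those of count models. Tnr after knockdown had -2.41 here and -1.59 by DESeq2. Col3a1 after OSMI-1 had -2.23 by limma without the filter and -3.42 by DESeq2. Alternatives were other pseudocounts, filters and scalings, edgeR's quasi-likelihood test and DESeq2 1.42.0 on the recovered reads, array weights, a replicate block, each library left out, and the libraries that stood apart left out. The steps were tested on simulated data.

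The members and gene lists were chosen with earlier results of these data known. Named are all called members but 1, which is not reported here, the highest member of each role and the 3 called genes with the smallest adjusted p of each related list. Library values are shown for called members whose higher group mean was at least 100, up to 10 rising and 10 falling per arm. Others named were chosen after their values were seen. Positions, exon lengths and 3′UTRs come from GENCODE M21 (GRCm38), where all 76 symbols matched, and promoters and miRNAs from RefSeq (GRCm38.p6).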

Additional observations from a re-analysis of the deposited data

Results flagged for a closer look

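In 2 of 128 groups of libraries examined (1 gene in 1 group of 5 or 6 libraries), 1 library lay far from the rest, where chance alone would mark about 1 in 20. Col28a1 was lowest in shLuc 1 at 1450.1, with the nearest other shLuc library at 1818. Lama2 was highest in vehicle 1 at 92.9, with the nearest other vehicle library at 54.4. Both libraries also stood apart on the second principal component of their arm.

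The log2 fold change differed between knockdown and OSMI-1 for 25 matrix genes by the contrast of the 2 arms, 6 of them with opposite calls. Given as knockdown minus OSMI-1, the difference was above 0 for the glycoproteins Crispld2 (2.58), Thbs1 (1.43), Fbn2 (1.42), Tnc (1.10) and Sparc (0.62). Among basement membrane genes it was 2.06 for Nid1, 1.23 for Lama4, 1.01 for Lama2, 0.75 for Lamb1, 0.48 for Lamc1, 1.09 for Col4a2 and 0.73 for Col4a1. For the other collagens it was 1.34 for Col16a1, 1.01 for Col12a1, 0.91 for Col5a1, 0.81 for Col5a3 and 0.62 for Col5a2. Pcolce had 1.80, Timp2 1.31 and Timp3 0.61. Below 0 were Tnr (-2.47), Vcan (-1.18), Ncan (-0.77), Col28a1 (-0.58) and Bcan (-0.35). The Tnr difference was imprecise (SE 0.91, adjusted p = 0.048 by the limma contrast), and the knockdown call of Tnr was lost with edgeR and DESeq2. The cause of these differences was not tested.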

How the results depend on the processing

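The count of matrix genes called after knockdown (21) lay between 19 and 23 over the alternatives and between 18 and 23 with 1 library left out. After OSMI-1 (18) it lay between 16 and 21 and between 15 and 20, and the count that differed between the arms (25) between 22 and 26 and between 22 and 25. Of 39 called gene values 34 passed under each alternative run that tested them, and 5 were lost under some: Col28a1, Nid2 and Tnr after knockdown and Fbn2 and Thbs1 after OSMI-1. Runs in which a gene did not pass the filter were not counted. Col26a1 after OSMI-1 was tested in only 6 of the 11 fits with 1 library left out. Without the filter on low counts, the adjusted p was 0.061 for Col28a1, 0.086 for Nid2 and 0.086 for Thbs1. With total-read scaling it was 0.16 for Col28a1 and 0.095 for Nid2. Of 25 values not called 8 passed somewhere. No called value changed sign.

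Signs changed in 23 fits of values near 0. With the libraries that stood apart left out, the log2 fold change was -0.0041 for Col4a2 after knockdown and -0.061 for Col18a1, 0.071 for Lama2 and -0.012 for Lamb1 after OSMI-1. Lamb2 after knockdown was 0.012 with total-read scaling. With 1 library left out, values ran on both sides of 0, from -0.060 to 0.14 for Col5a1 and from -0.092 to 0.011 for Lamb2 after knockdown, and after OSMI-1 from -0.085 to 0.23 for Col18a1, from -0.25 to 0.20 for Lama2, from -0.0089 to 0.084 for Lamb1 and from -0.20 to 0.45 for Tnr.

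With the replicate number as a replicate block, 20 matrix genes were called after knockdown, 18 after OSMI-1 and 24 for the difference, and of the called values only that of Col28a1 after knockdown was lost (adjusted p = 0.058). Same-numbered libraries did not deviate together (correlations from -0.01 to 0.16 in the knockdown arm and from -0.10 to 0.05 in the inhibitor arm), only shOgt 3 correlated best with its own number, and the numbers are not taken as pairing. Depth limits low genes such as Tnr and most of the 33 members below the filter, of which limma without the filter called 2 after knockdown and 2 after OSMI-1.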
